A study of Mus musculus with 35 samples.

Results

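The Hoxb cluster genes Hoxb2 to Hoxb9 were examined in mouse hematopoietic stem and progenitor cells (HSPCs) that expressed the leukemia fusion protein NUP98-HOXA9 or mutants of it. The 8 genes were chosen by symbol, 8 of the 49671 genes counted, and all 8 were found in the count table and passed the filter on low counts. They lie head to tail on the + strand of chromosome 11 within 82.6 kb (mm10, positions 96271457 to 96354012, from the start of Hoxb9 to the end of Hoxb2), in the order Hoxb9, Hoxb8, Hoxb7, Hoxb6, Hoxb5, Hoxb4, Hoxb3 and Hoxb2. Results follow the gene numbers, from the Hoxb2 end to the Hoxb9 end of the cluster.

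Hox genes encode homeodomain transcription factors that bind DNA together with partners of the PBX and MEIS families. In the embryo the genes of a cluster are switched on in their order along the chromosome. In blood, genes of the Hoxa and Hoxb clusters are used by stem and progenitor cells and are shut down as the cells mature, and fusions of the nuclear pore protein NUP98 to a Hox homeodomain are known to hold such genes on in leukemia. The NUP98 part of the fusion is rich in phenylalanine-glycine (FG) motifs, and the HOXA9 part carries the homeodomain.

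RNA-seq was done on lineage-negative (lin-) bone marrow cells transduced with lentivirus, in 7 groups of 5 libraries. Before harvest the cells were cultured for 1 week in methylcellulose with myeloid and erythroid growth factors, to which 10 ng/mL GM-CSF was added. Empty received the vector alone, G-NHX9 the fusion (G-NHA9 in the study's text), G-NHX9-8FA the fusion with 8 phenylalanines changed to alanine, and G-NHX9-21FGAA the fusion with 21 FG pairs changed to alanine. G-NHX9-midi carried a shortened NUP98 part, G-NHX9-midi-21FGAA the same with its 21 FG pairs changed, and G-NHX9-DDNA a homeodomain mutated to weaken DNA binding. The labels give donor ages of 8 weeks for 32 libraries, of 9 and 10 weeks for Empty replicates 4 and 5, and of 11 weeks for G-NHX9 replicate 1. Before plating, Empty cells were sorted for mCherry, and cells of the other groups for both mCherry and mEGFP. Each library is thus from a pool of cells and not a clone, and Empty differs from the other groups in the sort as well. A number on a label is not stated to be a mouse, and p-values then measure the spread between these libraries, which may be partly technical.

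Libraries held 31559914 to 75810659 counted reads, and 3 reads in a library correspond to 0.0382 to 0.0996 CPM (counts scaled to the library total and by TMM), which sets the level below which a gene could not be told from 0. No 2 libraries of a group agreed within sampling noise, the lowest chi-square per degree of freedom over 70 pairs being 22.5. All 12 stem and progenitor markers listed were measured, with a summed level of 338 to 485 CPM in Empty, and after the week in culture late neutrophil markers summed to 8950 to 12800 CPM in the same libraries. The stem and progenitor sum was 755 to 926 CPM in G-NHX9, 406 to 537 in G-NHX9-8FA, 429 to 513 in G-NHX9-midi, 703 to 1030 in G-NHX9-21FGAA, 391 to 977 in G-NHX9-midi-21FGAA and 447 to 687 in G-NHX9-DDNA. In the same order 7, 4, 5, 8, 4 and 5 of the 12 were higher than in Empty and 1, 3, 4, 0, 0 and 1 lower, Kit going from 83.4 CPM in Empty to 45.2 in G-NHX9 and Cd34 from 36.9 to 220. Of all genes tested 16.9%, 13.4%, 20.5%, 14.7%, 9.59% and 9.85% were higher in these groups and 15.2%, 13.2%, 20%, 12.5%, 7.32% and 7.35% lower. In such bulk samples, fewer cells that express a gene and less RNA per cell cannot be told apart.

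All 8 genes were higher in G-NHX9 than in Empty, and in G-NHX9-8FA and G-NHX9-midi mainly those towards the Hoxb2 end were (the plots of levels and of fold changes). With edgeR's quasi-likelihood test at an adjusted p below 0.05, 8 of 8 genes were higher in G-NHX9 than in Empty, where 16.9% of the 17166 genes tested were higher. In 8 of 8 the 5 G-NHX9 libraries all lay above the 5 Empty libraries, as in 10.6% of all genes. Hoxb6 to Hoxb9 reached the count needed to pass the filter in the 5 G-NHX9 libraries and in 0 of the other 30, and Hoxb5 in 3 of those 30, so that these genes entered the test through the group in which they were high and their part in these counts and in the medians given here is no support for a rise. In G-NHX9-8FA 5 genes rose (Hoxb2, Hoxb3, Hoxb4, Hoxb5 and Hoxb6, background 13.4%), 4 of them without overlap (background 8.32%). In G-NHX9-midi 4 rose (Hoxb2, Hoxb3, Hoxb4 and Hoxb9, background 20.5%), all 4 without overlap (background 13.4%). For Hoxb9 the nearest libraries of the 2 groups both held 2 reads and were set apart by depth alone. No Hoxb gene rose in G-NHX9-21FGAA (background 14.7%) or G-NHX9-midi-21FGAA (background 9.59%), none of the 8 having an unadjusted p below 0.05 for a rise in either group and none being called by DESeq2, and 1, Hoxb9, rose in G-NHX9-DDNA (background 9.85%). At the other sign, no gene fell in G-NHX9 (background 15.2%), G-NHX9-8FA (background 13.2%) or G-NHX9-midi (background 20%), with 0 of 8 at an unadjusted p below 0.05 for a fall and 0 called by DESeq2 in each. In the other groups 1 gene fell in G-NHX9-21FGAA (Hoxb8, background 12.5%), 3 in G-NHX9-midi-21FGAA (Hoxb3, Hoxb4 and Hoxb8, background 7.32%) and 2 in G-NHX9-DDNA (Hoxb3 and Hoxb8, background 7.35%). The median log2 fold change of the 8 genes was 4.54 in G-NHX9, 1.28 in G-NHX9-8FA, 0.70 in G-NHX9-midi, -0.02 in G-NHX9-21FGAA, -0.79 in G-NHX9-midi-21FGAA and -0.26 in G-NHX9-DDNA, beside medians of all tested genes between -0.02 and 0.03. Where no library of a group held over 3 reads, the fitted value can be replaced by a bound at that level. With these bounds, and without genes at that level in both groups, the medians were 4.16, 1.14, 0.65, -0.32, -0.42 and -0.19. These comparisons share the 5 Empty libraries.

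**Figure D1:**
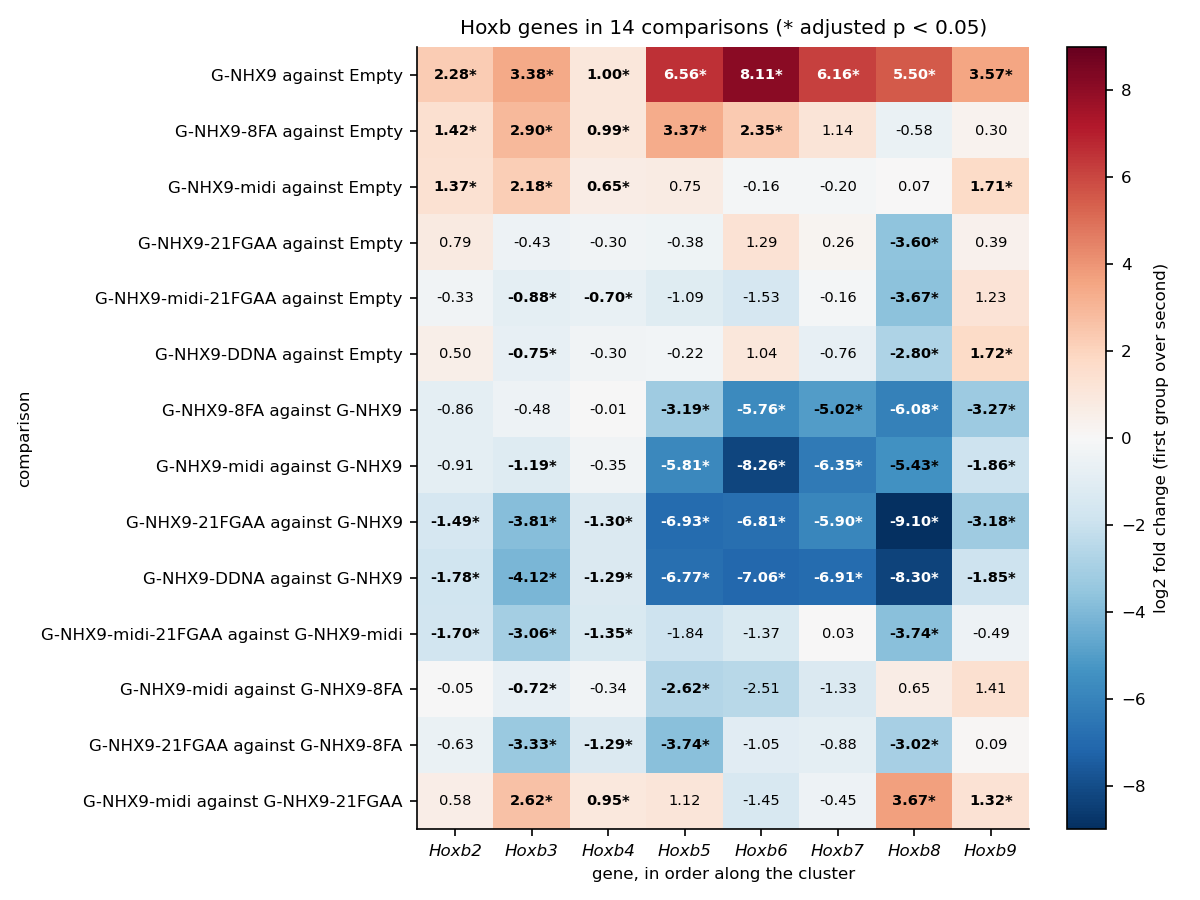
Log2 fold change of each Hoxb gene (columns, in order along the cluster) in the 14 comparisons (rows, first group over second), with a star and bold type where the adjusted p was below 0.05. The first row is red throughout, from 1.00 for Hoxb4 to 8.11 for Hoxb6, while the rows of G-NHX9-8FA and G-NHX9-midi against Empty are red mainly at the Hoxb2 end; values for groups with 3 or fewer reads in all depend on the fit's prior count.

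Hoxb2 (ENSMUSG00000075588.6, positions 96350525 to 96354012), which patterns the hindbrain in the embryo, had the lowest level per kb of exon of the 8 in G-NHX9. The 5 Empty libraries held 2, 4, 5, 3 and 2 reads (0.0832 ± 0.0279 CPM, SD, n = 5) and the G-NHX9 libraries 22, 11, 17, 13 and 17 reads (0.42 ± 0.148 CPM). All G-NHX9 libraries were above all Empty libraries, a log2 fold change of 2.28 ± 0.43 (SE, edgeR adjusted p = 0.00011). G-NHX9-8FA had 17, 10, 7, 10 and 5 reads and G-NHX9-midi 15, 8, 10, 8 and 7, with means of 0.228 and 0.22 CPM. Both groups were above every Empty library, with log2 fold changes of 1.42 ± 0.45 (adjusted p = 0.018) and 1.37 ± 0.45 (adjusted p = 0.015). The G-NHX9-8FA call was lost without Empty replicate 1 (1.26, adjusted p = 0.053) or G-NHX9-8FA replicate 1 (1.12, adjusted p = 0.08), and among libraries labelled 8 weeks (1.37, adjusted p = 0.074), as was the G-NHX9-midi call among those libraries (1.32, adjusted p = 0.061). G-NHX9-8FA and G-NHX9-midi differed by -0.05 on the log2 scale (from -0.83 to 0.73 at 2 SE, adjusted p = 0.97). In the remaining mutants the means were 0.14 CPM in G-NHX9-21FGAA, 0.119 in G-NHX9-DDNA and 0.0617 in G-NHX9-midi-21FGAA, with 1 to 22 reads per library, and none of the 3 passed the test against Empty. Of Hoxb2's exon bases, 27.3% are shared with the antisense gene Hoxb3os on the other strand, which held 98 reads over all 35 libraries.

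**Figure D2:**
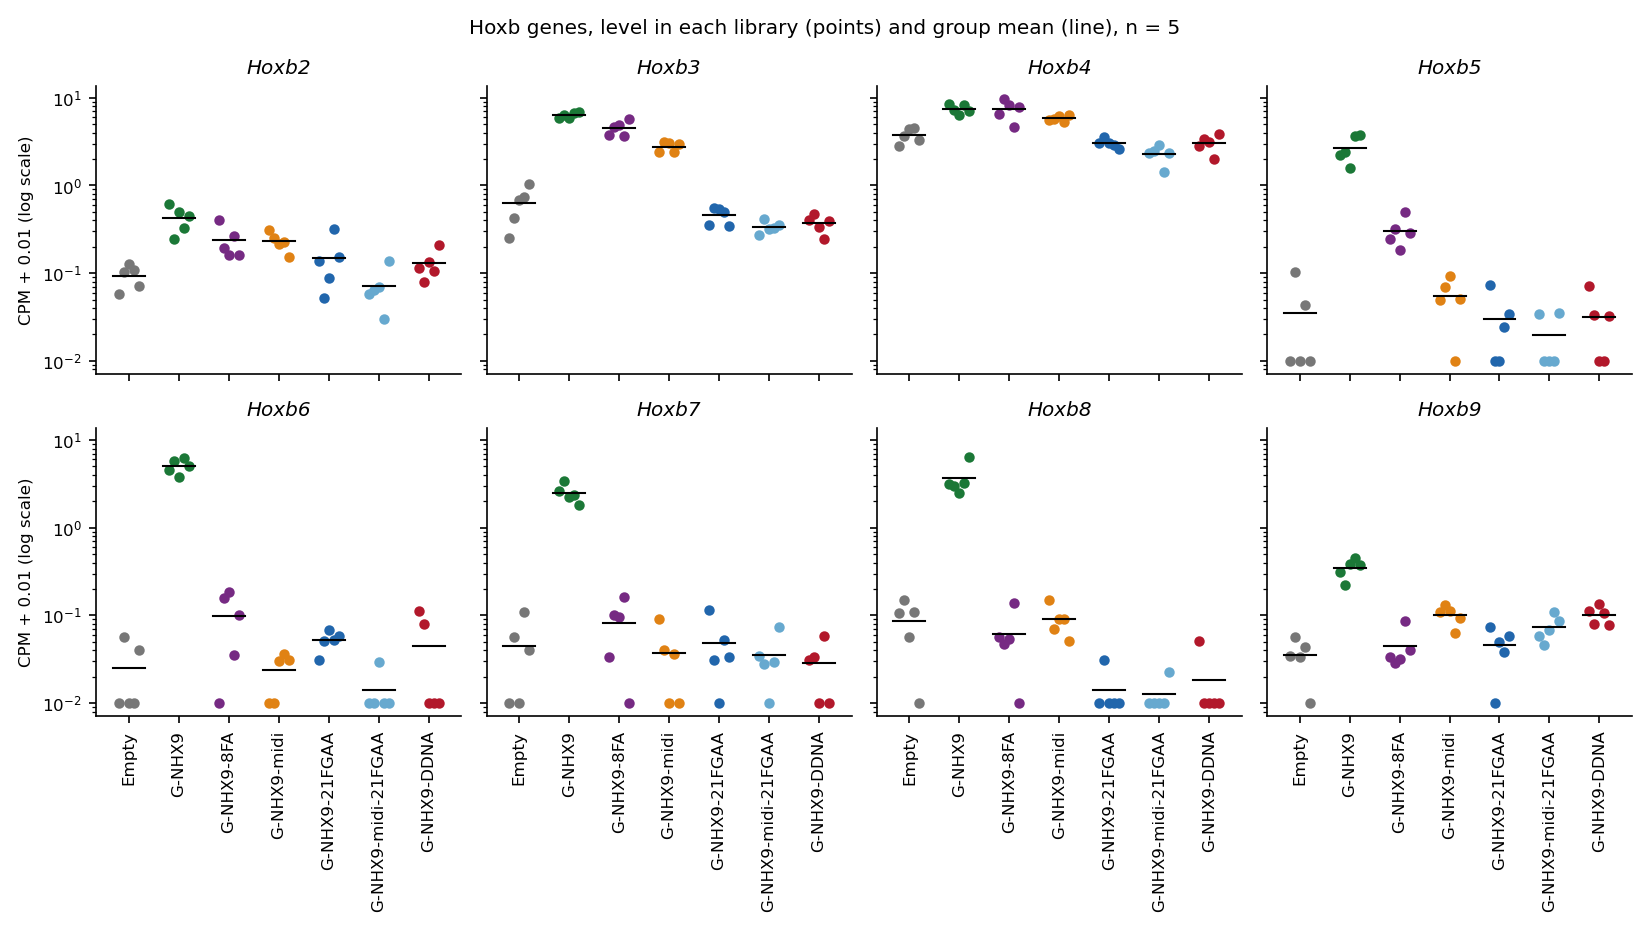
Level of each Hoxb gene in each library (points, CPM + 0.01 on a log axis) by group, with the group mean as a line (n = 5). Hoxb3 steps down from G-NHX9 (mean 6.34 CPM) over G-NHX9-8FA (4.56) and G-NHX9-midi (2.77) to the other groups, whereas for Hoxb6, Hoxb7 and Hoxb8 the 5 G-NHX9 libraries stand apart from the 30 others.

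Hoxb3 (ENSMUSG00000048763.11, positions 96323326 to 96347930), which acts with Hoxb4 in stem cell regeneration, showed the clearest grading. Its levels in the Empty libraries were 0.24, 0.413, 0.67, 0.73 and 1.04 CPM. In G-NHX9 they were 5.95, 6.33, 5.91, 6.7 and 6.81 CPM, in G-NHX9-8FA 3.8, 4.63, 4.9, 3.7 and 5.78, and in G-NHX9-midi 2.41, 3.09, 3.03, 2.38 and 2.95. None of these 4 groups overlapped another in its libraries. Against Empty the log2 fold changes were 3.38 ± 0.23 in G-NHX9 (10.4-fold, adjusted p = 6.4e-13), 2.90 ± 0.23 in G-NHX9-8FA (7.46-fold, adjusted p = 3.4e-11) and 2.18 ± 0.23 in G-NHX9-midi (4.54-fold, adjusted p = 2.9e-09). Of the neighbours in this order, G-NHX9-8FA against G-NHX9 did not pass the test (-0.48, from -0.88 to -0.08 at 2 SE, adjusted p = 0.11), although its 5 libraries lay below all 5 of G-NHX9. With the replicate number as a block in the fit, Hoxb3 was called lower in this comparison. G-NHX9-midi was below G-NHX9-8FA (-0.72 ± 0.20, adjusted p = 0.037), a call that was lost without any 1 of G-NHX9-8FA replicates 2, 3 and 5 or of the 5 G-NHX9-midi replicates (-0.76 to -0.59, adjusted p from 0.052 to 0.11), and with library totals in place of TMM (-0.64, adjusted p = 0.063). The groups without a rise were G-NHX9-21FGAA (0.447 ± 0.102 CPM), G-NHX9-DDNA (0.361 ± 0.0854) and G-NHX9-midi-21FGAA (0.328 ± 0.0497).

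Hoxb3 was called lower than Empty in G-NHX9-midi-21FGAA (-0.88 ± 0.25, adjusted p = 0.013) and in G-NHX9-DDNA (-0.75 ± 0.25, adjusted p = 0.035). Empty replicate 5, labelled 10 weeks, was the highest Empty library for Hoxb3 at 1.04 CPM. Without it the G-NHX9-midi-21FGAA value was -0.61 (adjusted p = 0.085) and the G-NHX9-DDNA value -0.48 (adjusted p = 0.18), and among libraries labelled 8 weeks they were -0.41 (adjusted p = 0.31) and -0.29 (adjusted p = 0.48). The G-NHX9-DDNA call was also lost without Empty replicate 3 (-0.70) or 4 (-0.68) and without G-NHX9-DDNA replicate 1 (-0.78), 3 (-0.71) or 4 (-0.63). Without Empty replicate 1, Hoxb3 was also called lower in G-NHX9-21FGAA. Of Hoxb3's exon bases, 52.9% are shared with Hoxb3os on the other strand.

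Hoxb4 (ENSMUSG00000038692.8, positions 96318267 to 96321638), known for expanding hematopoietic stem cells when overexpressed, was the one member well expressed in every group. Empty libraries had 2.81, 3.7, 4.37, 4.48 and 3.28 CPM, and G-NHX9 libraries 8.39, 7.17, 6.29, 8.33 and 6.97. The groups did not overlap, and the rise was 2-fold (log2 1.00 ± 0.18, adjusted p = 5.4e-05), the smallest in the cluster. In G-NHX9-8FA Hoxb4 stood at 6.45, 9.66, 8.18, 4.67 and 7.91 CPM, above every Empty library (0.99 ± 0.18, adjusted p = 8.3e-05) and on a level with G-NHX9 (difference -0.01, from -0.37 to 0.35 at 2 SE, adjusted p = 0.98). G-NHX9-midi, at 5.62, 5.7, 6.2, 5.3 and 6.32 CPM, was also above Empty (0.65 ± 0.18, adjusted p = 0.004) and its difference from G-NHX9 was -0.35 (from -0.71 to 0.01, adjusted p = 0.17). G-NHX9-21FGAA (3.02 ± 0.375 CPM) and G-NHX9-DDNA (3.03 ± 0.7) were both at -0.30 ± 0.18 against Empty and did not pass the test. Hoxb4 fell in G-NHX9-midi-21FGAA to 2.31, 2.48, 2.9, 1.42 and 2.34 CPM (-0.70 ± 0.18, adjusted p = 0.008), with 4 of the 5 libraries below every Empty library.

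Hoxb5 (ENSMUSG00000038700.4, positions 96303336 to 96306121), used as a marker of long-term stem cells, is separated from Hoxb4 by 12.1 kb. Empty libraries held 0, 4, 0, 1 and 0 reads, and G-NHX9 libraries 79, 115, 54, 146 and 143 (2.7 ± 0.933 CPM). Pooled, this is 537 against 5 reads, a depth-scaled ratio of 105 (95% exact interval 44.5 to 323, counting error only), and the fitted log2 fold change was 6.56 ± 0.58 (adjusted p = 1.7e-10). G-NHX9-8FA libraries held 10, 17, 8, 19 and 9 reads (0.296 ± 0.119 CPM), each above every Empty library (3.37 ± 0.66, adjusted p = 0.00023) and each below every G-NHX9 library (-3.19 ± 0.42, 9.12-fold lower, adjusted p = 1.9e-06). G-NHX9-midi libraries held 2, 2, 4, 0 and 2 reads, which was below G-NHX9-8FA (-2.62 ± 0.58, adjusted p = 0.0059) and not distinguishable from Empty (0.75 ± 0.87, adjusted p = 0.52). Empty replicate 2 held 4 of the 5 Empty reads, and without it the log2 fold changes against Empty were 8.14 in G-NHX9 (adjusted p = 2.6e-10) and 4.94 in G-NHX9-8FA (adjusted p = 4.9e-05). In G-NHX9-21FGAA, G-NHX9-midi-21FGAA and G-NHX9-DDNA no library held more than 3 reads.

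The antisense gene Hoxb5os, transcribed from the opposite strand across Hoxb5 and Hoxb6 (positions 96291024 to 96306910), followed another pattern. Empty libraries held 1, 3, 1, 1 and 0 reads, G-NHX9 libraries 256, 389, 305, 251 and 153, G-NHX9-8FA libraries 416, 453, 391, 431 and 352, and G-NHX9-midi libraries 182, 117, 190, 172 and 146. The means were 6.87 ± 1.91, 9.65 ± 1.28 and 3.73 ± 0.583 CPM in the 3 constructs, with log2 fold changes against Empty of 7.66 ± 0.39, 8.15 ± 0.39 and 6.78 ± 0.39 (edgeR adjusted p = 5.4e-16, 1.6e-16 and 1.1e-14). Against G-NHX9, G-NHX9-8FA was at 0.49 ± 0.23 (adjusted p = 0.15, not called) and G-NHX9-midi at -0.88 ± 0.23 (adjusted p = 0.0064). G-NHX9-21FGAA, with 5, 12, 11, 13 and 7 reads, was above Empty (2.46 ± 0.51, adjusted p = 0.00053), G-NHX9-DDNA had 1, 3, 5, 1 and 9 reads (1.35 ± 0.59, adjusted p = 0.11) and G-NHX9-midi-21FGAA at most 2 reads per library. The G-NHX9-8FA and G-NHX9-midi libraries held 117 to 453 Hoxb5os reads beside at most 19 reads of Hoxb5 and at most 8 of Hoxb6.

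Within single libraries, the log2 ratio of Hoxb5os to Hoxb5 reads (0.5 added to each count) was 1.36 ± 0.93 (SD) in G-NHX9, 5.04 ± 0.44 in G-NHX9-8FA and 6.29 ± 1.23 in G-NHX9-midi. The ratio of Hoxb5os to Hoxb6 was 0.41 ± 0.61, 7.16 ± 1.76 and 7.37 ± 0.80. The ratio of Hoxb3 to Hoxb5, genes of the same strand on either side of the gap, was 1.30 ± 0.43, 3.95 ± 0.69 and 5.87 ± 0.95. The ratio of Hoxb3 to Hoxb4 differed from that in G-NHX9 by -0.45 in G-NHX9-8FA and by -0.85 in G-NHX9-midi. These ratios were chosen after the values were seen and are given as descriptions with no test. With 0 to 4 reads of Hoxb5 and 0 or 1 of Hoxb6 in the G-NHX9-midi libraries, the ratios there depend on the 0.5 added. Hoxb5os shares 100 exon bases with Hoxb5, 14.4% of its own and 3.59% of those of Hoxb5, and none with exons of Hoxb6, which lies inside its span. The libraries were stranded, but the strand setting of the counting is not given in the sources used here, so reads on the shared bases cannot be assigned to either gene with certainty.

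**Figure D3:**
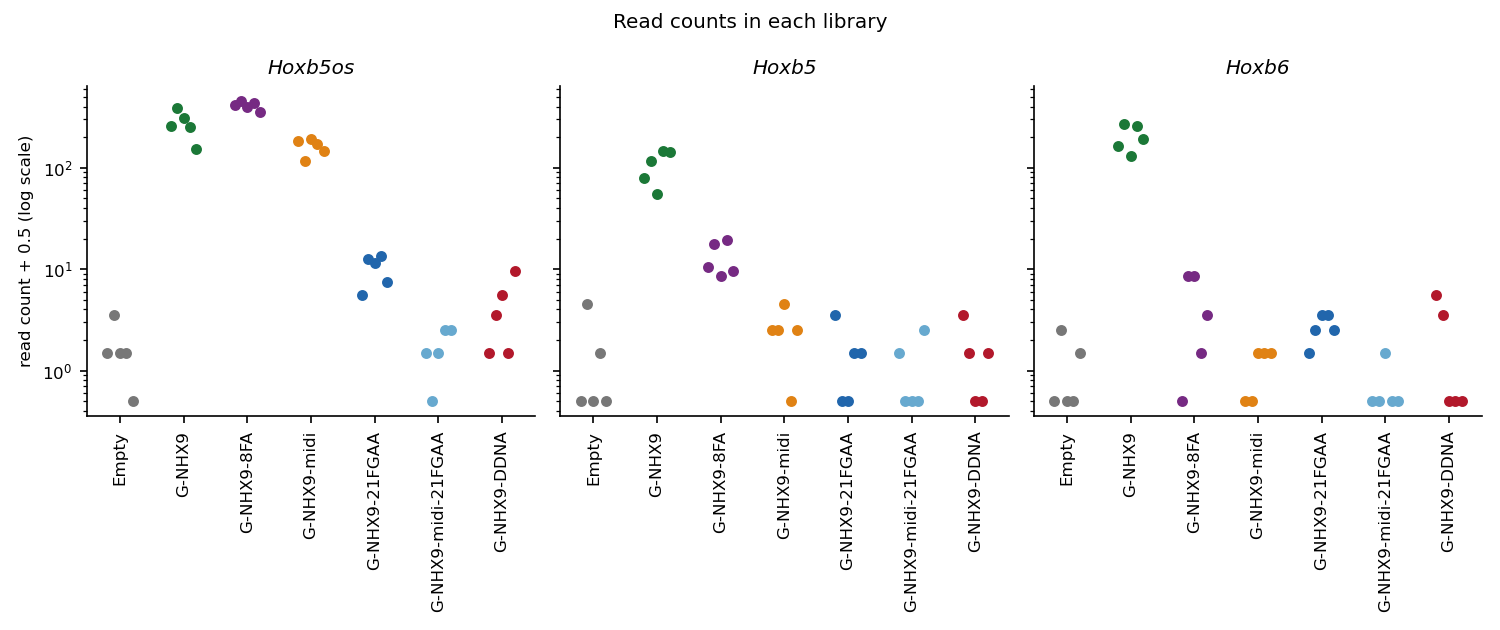
Read counts of Hoxb5os, Hoxb5 and Hoxb6 in each library (count + 0.5 on a log axis) by group. Hoxb5os is high in G-NHX9 (153 to 389 reads), G-NHX9-8FA (352 to 453) and G-NHX9-midi (117 to 190), while Hoxb5 and Hoxb6 have 54 to 146 and 130 to 271 reads in G-NHX9 and at most 19 and 8 elsewhere.

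Hoxb6 (ENSMUSG00000000690.5, positions 96292476 to 96301569), which can expand myeloid progenitors when overexpressed, went from almost no reads to the second highest level per kb of exon in G-NHX9. Empty libraries held 0, 2, 0, 0 and 1 reads and G-NHX9 libraries 163, 271, 130, 254 and 193 (5.07 ± 0.986 CPM). Pooled over the libraries this is 1011 against 3 reads, a depth-scaled ratio of 328 (95% exact interval 112 to 1593, counting error only), and the fitted log2 fold change was 8.11 ± 0.59 (adjusted p = 2.9e-12), or 9.04 without Empty replicate 2, which held 2 of the 3 Empty reads. G-NHX9-8FA libraries held 0, 8, 8, 1 and 3 reads, 20 in all against 3 in Empty (ratio 5.91, interval 1.75 to 31.1). Its call (2.35 ± 0.85, adjusted p = 0.037) was lost without Empty replicate 1 (2.03), 3 (2.02) or 4 (2.11) and without G-NHX9-8FA replicate 2 (2.04), 3 (1.96) or 5 (2.33), with adjusted p from 0.055 to 0.12, and among libraries labelled 8 weeks (2.34, adjusted p = 0.11), and the value was 3.28 without Empty replicate 2 (adjusted p = 0.021). G-NHX9-midi held 0 or 1 read per library, G-NHX9-21FGAA 1 to 3, G-NHX9-midi-21FGAA 0 or 1 and G-NHX9-DDNA 5, 3, 0, 0 and 0. Only through G-NHX9 did Hoxb6 enter the test, and with no filter its G-NHX9 value against Empty was 8.11 (edgeR adjusted p = 4.2e-14).

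Hoxb7 (ENSMUSG00000038721.8, positions 96286623 to 96290162), a growth-promoting member in several tumors, had more than 6 reads in a library only in G-NHX9. G-NHX9 libraries held 94, 159, 76, 94 and 70 reads (2.46 ± 0.577 CPM), against 0, 2, 0, 3 and 1 in Empty. Pooled, this is 493 against 6 reads, a ratio of 80 (95% exact interval 36.5 to 219), and the fitted log2 fold change was 6.16 ± 0.60 (adjusted p = 1.2e-09). It was 6.84 without Empty replicate 4, which held 3 of the Empty reads, and 7.05 among libraries labelled 8 weeks. G-NHX9-8FA held 1, 5, 4, 6 and 0 reads (1.14 ± 0.81, adjusted p = 0.33), and each other mutant between 0 and 5. None of the 5 mutants passed the test against Empty. All 5 libraries of each of G-NHX9-8FA, G-NHX9-midi, G-NHX9-21FGAA and G-NHX9-DDNA were below every G-NHX9 library, with log2 fold changes from -6.91 to -5.02. That of G-NHX9-midi was -7.38 without its replicate 1, and that of G-NHX9-21FGAA -6.55 without its replicate 1.

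Hoxb8 (ENSMUSG00000056648.5, positions 96281905 to 96285315), which blocks myeloid differentiation when held on, had reads in most Empty libraries. They held 4, 6, 2, 3 and 0 reads, and G-NHX9 libraries 114, 140, 85, 129 and 247 (3.64 ± 1.58 CPM), a log2 fold change of 5.50 ± 0.45 (adjusted p = 3e-11) and a pooled ratio of 46.4 (95% exact interval 27.9 to 83.3). G-NHX9 replicate 5 was at 6.42 CPM and the other 4 at 2.46 to 3.19. G-NHX9-8FA (2, 2, 2, 5 and 0 reads) and G-NHX9-midi (7, 2, 4, 3 and 2 reads) overlapped Empty, at -0.58 ± 0.64 (adjusted p = 0.55) and 0.07 ± 0.59 (adjusted p = 0.94). In the last 3 groups Hoxb8 had 1 read in G-NHX9-21FGAA, 1 in G-NHX9-midi-21FGAA and 2 in G-NHX9-DDNA over 5 libraries each, against 15 in Empty. The depth-scaled ratios were 20.3-fold lower (95% exact interval 3.13 to 857), 21.7-fold lower (3.34 to 915) and 8.87-fold lower (2.06 to 79.9). These intervals hold counting error only. The fitted log2 fold changes were -3.60, -3.67 and -2.80 (edgeR adjusted p = 0.0034, 0.0054 and 0.021). The Empty mean of 0.0759 CPM was only 1.27, 1.34 and 1.14 times the level of 3 reads per library in these groups. Their reads lay in a single library each, G-NHX9-21FGAA replicate 2, G-NHX9-midi-21FGAA replicate 5 and G-NHX9-DDNA replicate 1. Without that library the fitted log2 fold changes were -4.85, -4.83 and -4.86. The G-NHX9-DDNA call was lost without Empty replicate 2 (-2.46, adjusted p = 0.078) and without G-NHX9-DDNA replicate 2 (-2.57, adjusted p = 0.054) or 3 (-2.53, adjusted p = 0.06). Because Empty replicate 5 held no read, the libraries of these 3 groups overlapped those of Empty.

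The sequence before the start of 2 of the 8 members was found in the RefSeq promoter table used here (GRCm38.p6), those of Hoxb8, with at most 7 reads in any library outside G-NHX9, and Hoxb4, with 72 or more in every library. They are shown because no other member was listed, and not as examples of 2 kinds of member. Each is the 250 bases before the start on the + strand of chromosome 11, chr11:96281655-96281904 for Hoxb8 and chr11:96318017-96318266 for Hoxb4. Capitals mark the motif TTTAT on either strand, the short core found in sites of posterior Hox proteins such as HOXA9.
Hoxb8: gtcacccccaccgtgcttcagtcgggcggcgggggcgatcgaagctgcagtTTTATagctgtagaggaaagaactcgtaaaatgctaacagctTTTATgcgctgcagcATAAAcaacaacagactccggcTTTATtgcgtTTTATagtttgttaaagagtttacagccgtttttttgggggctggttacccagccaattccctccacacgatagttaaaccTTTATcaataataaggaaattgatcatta
Hoxb4: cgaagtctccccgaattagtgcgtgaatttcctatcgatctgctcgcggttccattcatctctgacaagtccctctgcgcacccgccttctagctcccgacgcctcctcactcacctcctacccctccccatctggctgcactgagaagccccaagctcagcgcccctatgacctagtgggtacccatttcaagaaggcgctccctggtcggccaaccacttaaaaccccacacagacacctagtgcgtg
The Hoxb8 window held 6 matches and the Hoxb4 window 0. Of 32851 listed windows of this length, 37.3% held at least 1 match and 0.393% held 6 or more. The general homeodomain core TAAT, on either strand, was found 2 times before Hoxb8 (as many in 30.8% of windows) and 1 time before Hoxb4 (at least 1 in 54.9%), and the MEIS site TGACAG, present on either strand in 15.9% of windows, in neither. The Hoxb8 window was 44.4% G or C and the Hoxb4 window 58%, beside a median of 52.4%, and the first 2 of these motifs consist of A and T only. A match is a run of letters and not a measured binding site.

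Hoxb9 (ENSMUSG00000020875.9, positions 96271457 to 96276595), which patterns the ribs and the mammary gland, had the lowest level per kb of exon of Hoxb5 to Hoxb9 in G-NHX9. Empty libraries held 1, 2, 1, 1 and 0 reads and G-NHX9 libraries 11, 10, 13, 18 and 14. Pooled, this is 66 against 5 reads, a ratio of 12.8 (95% exact interval 5.24 to 40.9), and the fitted log2 fold change was 3.57 ± 0.43 (adjusted p = 7.7e-08). G-NHX9-8FA held 1, 1, 1, 3 and 1 reads (0.30 ± 0.59, adjusted p = 0.83), G-NHX9-21FGAA 3, 0, 2, 2 and 2 (0.39 ± 0.56, adjusted p = 0.75) and G-NHX9-midi-21FGAA 2, 2, 3, 5 and 6 (1.23 ± 0.51, adjusted p = 0.17). G-NHX9-midi held 5, 4, 5, 2 and 4 reads and G-NHX9-DDNA 5, 3, 6, 4 and 3, each library above every Empty library, with log2 fold changes of 1.71 ± 0.50 (adjusted p = 0.016) and 1.72 ± 0.49 (adjusted p = 0.033). The lowest G-NHX9-midi library and the highest Empty library both held 2 reads (0.0535 and 0.0459 CPM), so depth alone set them apart. Both group means were only 1.14 times the level of 3 reads per library in Empty. Without Empty replicate 5 the log2 fold changes were 1.45 (adjusted p = 0.056) and 1.48 (adjusted p = 0.084). The G-NHX9-DDNA call was also lost without Empty replicate 1 (1.70) or 3 (1.69), without G-NHX9-DDNA replicate 1 (1.68) or 3 (1.59), and with DESeq2 (1.83, adjusted p = 0.074). Both calls were lost among libraries labelled 8 weeks (1.47, adjusted p = 0.085, and 1.49, adjusted p = 0.12). Like Hoxb6 to Hoxb8, Hoxb9 entered the test only through G-NHX9. With no filter its G-NHX9 value against Empty was 3.57 (edgeR adjusted p = 1e-06).

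The mutants were also compared directly with G-NHX9. Hoxb5 to Hoxb9 entered the test through G-NHX9, the group in which they were high. Their part in the counts and medians of these comparisons is therefore no support for a fall. G-NHX9-8FA was lower for 5 genes, Hoxb5 to Hoxb9 (background 8.04%), and its libraries lay below all of G-NHX9 for 6 genes (background 5.69%). The intervals of the log2 fold changes of Hoxb5 to Hoxb9 at 2 SE ran from -7.02 to -2.35. For Hoxb2 (-0.86, from -1.60 to -0.12) and Hoxb3 (-0.48, from -0.88 to -0.08) the test was not passed, though Hoxb3 was called lower with a replicate block. G-NHX9-midi was lower for 6 genes, Hoxb3 and Hoxb5 to Hoxb9 (background 11.2%), all 6 without overlap (background 7.65%). G-NHX9-21FGAA and G-NHX9-DDNA were lower for all 8 (background 8.34% and 11.4%), 7 and 8 of them without overlap (background 5.13% and 7.21%), with median log2 fold changes of the 8 genes of -4.86 and -5.45 beside medians over all tested genes of -0.02 and -0.00. With bounds at the level of 3 reads in place of fitted values, as above, the medians of the 8 genes were -4.66 and -4.67. The smallest changes in both groups were those of Hoxb4 (-1.30 ± 0.18, adjusted p = 1.9e-06, and -1.29 ± 0.18, adjusted p = 1.6e-06). Calls of Hoxb2 (without G-NHX9-21FGAA replicate 4, -2.08), Hoxb5 (without replicate 1 of G-NHX9-21FGAA, -7.78, or of G-NHX9-DDNA, -7.60), Hoxb6 (without G-NHX9-DDNA replicate 1, -8.01) and Hoxb8 (without G-NHX9-21FGAA replicate 2 or G-NHX9-DDNA replicate 1, both -10.36) held, with values moved by over 1.5 times.

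Mutants were also compared with each other. G-NHX9-midi-21FGAA was below G-NHX9-midi for 4 genes (background 22.2%), and for these 4 no library of one group reached the other (background 15.9%). They were Hoxb2 (-1.70 ± 0.44, adjusted p = 0.002), Hoxb3 (-3.06 ± 0.23, adjusted p = 3.1e-12), Hoxb4 (-1.35 ± 0.18, adjusted p = 2.7e-07) and Hoxb8 (-3.74 ± 0.88, adjusted p = 0.00076, or -4.90 without G-NHX9-midi-21FGAA replicate 5). Hoxb8 had 18 reads against 1, 22.9-fold lower when pooled (95% exact interval 3.61 to 952, counting error only). Its G-NHX9-midi mean was only 1.42 times the level of 3 reads per library in G-NHX9-midi-21FGAA. G-NHX9-21FGAA against G-NHX9-8FA was lower for 4 genes (background 17.1%), 3 of them without overlap (background 9.8%), namely Hoxb3 (-3.33 ± 0.23), Hoxb4 (-1.29 ± 0.18), Hoxb5 (-3.74 ± 0.65, or -4.59 without G-NHX9-21FGAA replicate 1) and Hoxb8, the last with 1 read against 11, at -4.26 without G-NHX9-21FGAA replicate 2 and lost without G-NHX9-8FA replicate 4 (-2.43, adjusted p = 0.078). G-NHX9-midi against G-NHX9-8FA was lower for 2, Hoxb3 and Hoxb5 (background 2.74%), both without overlap (background 2.26%). G-NHX9-midi was above G-NHX9-21FGAA for 4 genes (background 18.1%), 3 of them without overlap (background 12.3%), Hoxb3 (2.62 ± 0.23), Hoxb4 (0.95 ± 0.18), Hoxb8 (18 reads against 1, 4.93 without G-NHX9-21FGAA replicate 2) and Hoxb9 (1.32 ± 0.44, adjusted p = 0.035). The Hoxb9 call was lost without G-NHX9-midi replicate 1, 2 or 3 (1.29, 1.23 and 1.28), without G-NHX9-21FGAA replicate 2 or 4 (1.02 and 1.23), and with DESeq2 (1.36, adjusted p = 0.081).

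The makeup of the cluster's reads is given as a description, since it rests on the same counts. All 8 genes together reached 28.4 ± 3.42 CPM in G-NHX9, 12.7 ± 2.36 in G-NHX9-8FA, 9.08 ± 0.686 in G-NHX9-midi, 4.6 ± 0.907 in Empty, 3.75 ± 0.378 in G-NHX9-21FGAA, 3.69 ± 0.775 in G-NHX9-DDNA and 2.78 ± 0.555 in G-NHX9-midi-21FGAA. Hoxb5 to Hoxb9 supplied 49.7 ± 4.11% of these reads in G-NHX9, with no library below 45%, and 2.85% to 4.95% on average in the other 6 groups, with no library above 9.19%. Hoxb4 alone supplied 81.2 ± 4.97% in Empty and 26.3 ± 2.98% in G-NHX9. Hoxb3 supplied 36.1 ± 3.85% in G-NHX9-8FA and 30.5 ± 2.03% in G-NHX9-midi, against 13.2 ± 6.23% in Empty.

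**Figure D4:**
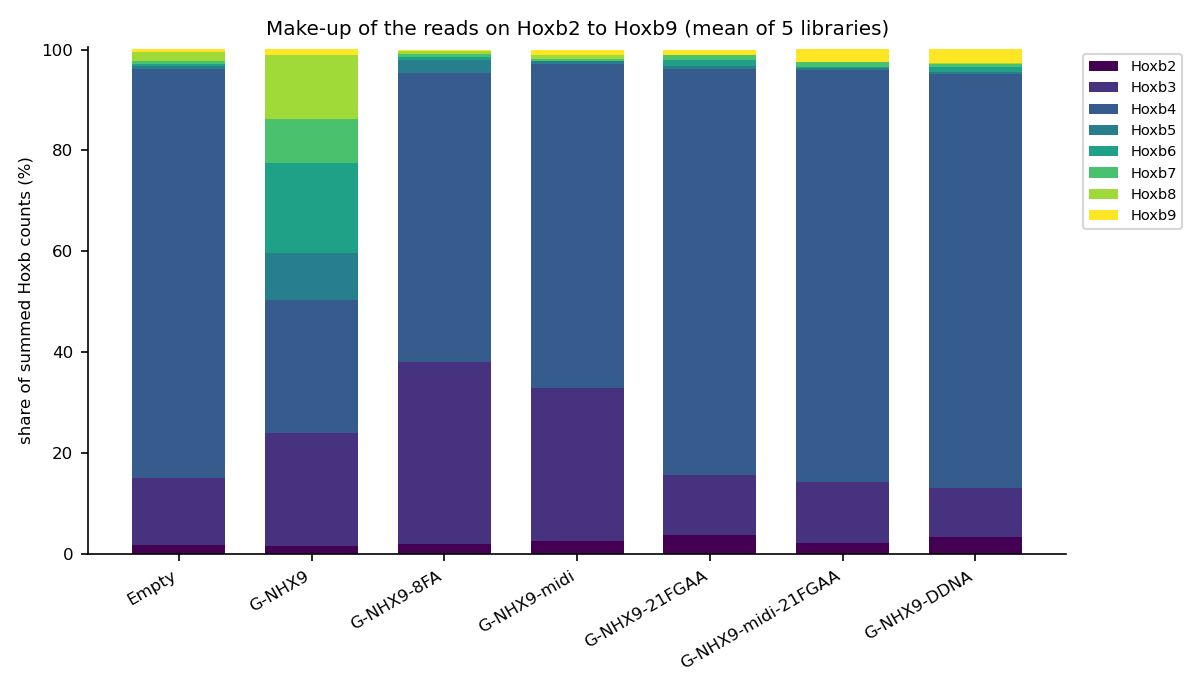
Mean share (%) of each Hoxb gene in the summed reads of Hoxb2 to Hoxb9 by group, stacked in gene order from Hoxb2 at the bottom (n = 5 libraries). Hoxb4 fills 81.2% of the Empty bar, and Hoxb5 to Hoxb9 fill 49.7% of the G-NHX9 bar and under 5% of the others.

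Per kb of exon, the highest member was Hoxb4 in all 7 groups, at 2.9 ± 0.355 CPM per kb in G-NHX9 and 1.45 ± 0.278 in Empty. In G-NHX9 it was followed by Hoxb6 (2.58 ± 0.502), Hoxb7 (1.6 ± 0.374), Hoxb3 (1.49 ± 0.0977), Hoxb8 (1.38 ± 0.601) and Hoxb5 (0.971 ± 0.335), with Hoxb9 (0.132 ± 0.034) and Hoxb2 (0.12 ± 0.0423) at both ends of the cluster far below. In this order Hoxb4 and Hoxb6 lay within 1 SD of each other, as did Hoxb7, Hoxb3 and Hoxb8, then Hoxb8 and Hoxb5, and Hoxb9 and Hoxb2. In G-NHX9-8FA the level per kb dropped from 2.87 ± 0.737 at Hoxb4 to 0.106 ± 0.0427 at Hoxb5 and to 0.0133 ± 0.00947 at Hoxb9.

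**Figure D5:**
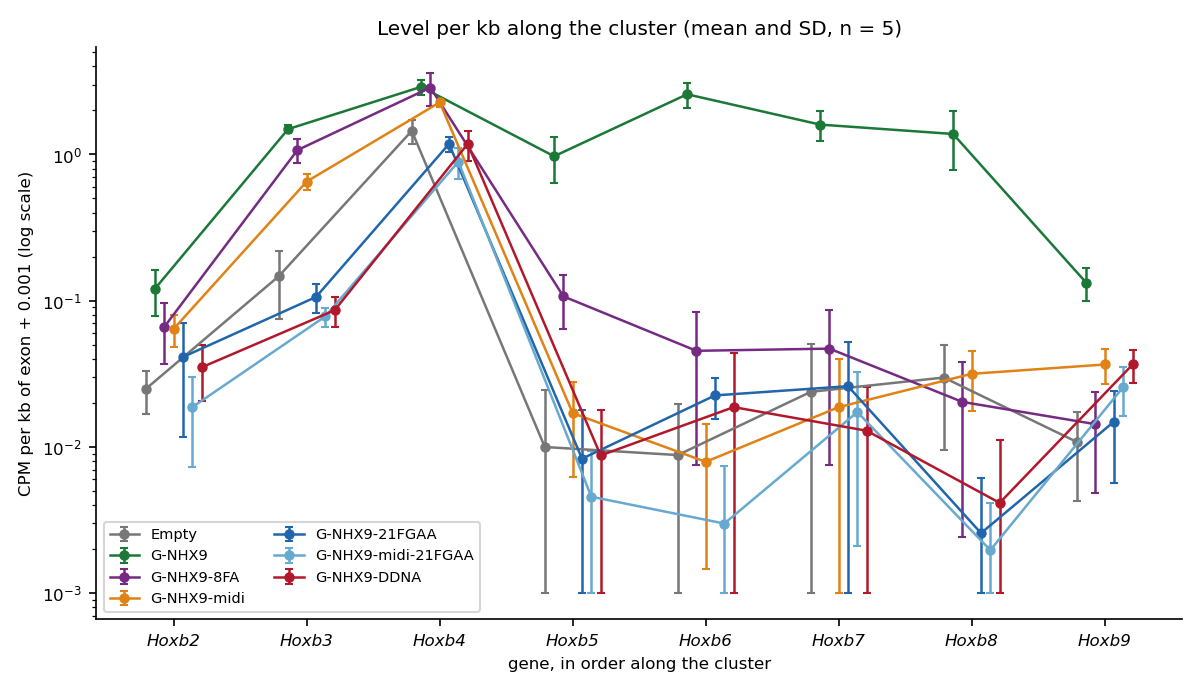
Level per kb of exon (CPM per kb + 0.001 on a log axis, mean and SD, n = 5, lower bars ending at 0 where the SD exceeded the mean) of the Hoxb genes in cluster order, with 1 line per group. All groups peak at Hoxb4, and beyond it only the G-NHX9 line stays high, at 0.971 to 2.58 CPM per kb from Hoxb5 to Hoxb8.

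No rise was called beyond Hoxb2 and Hoxb9 in G-NHX9. Hoxb1 held 18 reads and Hoxb13 28 reads over all 35 libraries and neither was tested, nor were the noncoding genes Hoxb3os (98 reads) and Gm53 (25 reads), and rows of the microRNA genes Mir10a and Mir196a-1 held 0 reads in every library of this total RNA protocol. The 3 nearest tested protein-coding genes beyond Hoxb1 (Skap1, Snx11 and Cbx1) and beyond Hoxb13 (Atp5g1, Ube2z and Snf8) differed between G-NHX9 and Empty by -0.43 to 0.30 on the log2 scale. Of these Snf8 (-0.43 ± 0.08), Snx11 (-0.30 ± 0.10) and Ube2z (-0.22 ± 0.07) were called lower and none higher. Skap1, which encodes an adaptor protein of immune cells, was lower in G-NHX9-8FA (-0.80 ± 0.24, adjusted p = 0.013) and G-NHX9-midi (-1.33 ± 0.25, adjusted p = 5.2e-05), where Hoxb2, Hoxb3 and Hoxb4 were higher. In G-NHX9, where these Hoxb genes were higher too, Skap1 was at 0.30 ± 0.24 (edgeR adjusted p = 0.38, not called).

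Other Hox clusters were read for the same constructs. Of the Hoxa genes other than Hoxa9, whose homeodomain is part of the fusion, 8 of 10 were tested, and 8 rose in G-NHX9, 7 in G-NHX9-8FA, 6 in G-NHX9-midi, 5 in G-NHX9-21FGAA, 2 in G-NHX9-midi-21FGAA and 1 in G-NHX9-DDNA. The median log2 fold changes of the 8 were 5.73, 5.0, 4.50, 2.59, 1.19 and 0.68 in that order, above the Hoxb median in each group. Of all genes tested 16.9%, 13.4%, 20.5%, 14.7%, 9.59% and 9.85% were higher in these groups, in the same order. The 1 of 8 Hoxa genes in G-NHX9-DDNA was near that share. Hoxa5 went from 0.18 CPM in Empty to 12.1, 7.14 and 5.27 CPM in G-NHX9, G-NHX9-8FA and G-NHX9-midi, and was still at 1.41 CPM in G-NHX9-21FGAA (2.98 ± 0.33 on the log2 scale, adjusted p = 1.9e-07), where no Hoxb gene rose. Hoxa6 reached 2.59 CPM and Hoxa10 4.24 CPM in G-NHX9, and Hoxa10 was the gene that rose in G-NHX9-DDNA (3.95 ± 0.52, adjusted p = 5.3e-05). Of the Hoxc genes 4 of 9 were tested, and 4, 3, 2, 1, 0 and 0 rose in the same order of groups, with medians of 8.84, 5.59, 1.42, 0.79, -1.05 and -0.21. Hoxc6 (19.6 CPM), Hoxc4 (12.6 CPM) and Hoxc5 (7.21 CPM) were near 0 in Empty and reached 4.47, 1.3 and 0.771 CPM in G-NHX9-8FA. The tested Hoxc genes reached the filter's count in all 5 G-NHX9 libraries and in 10 (Hoxc6), 5 (Hoxc4 and Hoxc5) and 1 (Hoxc8) of the other 30, and Hoxc8 entered the test through G-NHX9, so that the Hoxc counts and medians are no support for a rise of the cluster. None of the 9 Hoxd genes passed the filter. Whether the clusters differed in their response was not tested.

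Across the 35 libraries the members fell into blocks of like pattern, given here as descriptions of points that share groups and depth. Hoxb3 and Hoxb4 correlated at r = 0.92 (Pearson, log2 CPM), and Hoxb5, Hoxb6, Hoxb7 and Hoxb8 with each other at 0.89 to 0.93, while Hoxb4 and Hoxb9 were at 0.30. Among the 12773 other genes averaging 1 CPM or more, the most alike were B630019K06Rik (0.96) and Barx2 (0.95) for Hoxb3, Hmga1 (0.91) and Bckdha (0.89) for Hoxb4, and Hoxc5 and Hoxc4 (both 0.96) for Hoxb5. For Hoxb6 they were Pbx3 (0.93) and Eya1 (0.91), for Hoxb7 Eya1 (0.94) and Pbx3 (0.93), and for Hoxb8 Eya1 (0.91) and Gm15448 (0.88). Eya1, a transcriptional coactivator, stood at 32.2 CPM in G-NHX9 and at 1.65 to 2.75 CPM in the other groups. The weakest members had looser matches, Kansl1l and Thy1 (both 0.81) for Hoxb2 and Socs2 (0.81) and Gcnt4 (0.80) for Hoxb9.

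Markers of mature and other lineages moved with the groups as well. Of all genes tested, 16.9% were higher in G-NHX9, 13.4% in G-NHX9-8FA, 20.5% in G-NHX9-midi, 14.7% in G-NHX9-21FGAA, 9.59% in G-NHX9-midi-21FGAA and 9.85% in G-NHX9-DDNA. In the same order 15.2%, 13.2%, 20%, 12.5%, 7.32% and 7.35% were lower, each against Empty. The erythroid list (10 genes) was lower than Empty for 9 genes in G-NHX9-8FA and 8 in G-NHX9-midi, and higher for 7, 9 and 4 genes in G-NHX9-21FGAA, G-NHX9-midi-21FGAA and G-NHX9-DDNA. Its summed level was 202 to 496 CPM in Empty and 216 to 536 in G-NHX9, where none of the 10 was called. The mast and basophil list (8 genes) summed to 1160 to 3420 CPM in Empty, to 422 to 836 CPM over the libraries of G-NHX9, G-NHX9-8FA and G-NHX9-midi, the 3 groups in which several Hoxb genes rose, and to 2500 to 6270 CPM in the other 3. The eosinophil list (5 genes) summed to 1160 to 1610 CPM in Empty, 258 to 919 in G-NHX9, 49.1 to 248 in G-NHX9-8FA and 31.8 to 106 in G-NHX9-midi, and the megakaryocyte list (5 genes) to 526 to 947, 245 to 740, 113 to 256 and 89.1 to 173. Late neutrophil markers (10 genes) summed to 8450 to 14500 CPM in G-NHX9 and 15200 to 33800 in G-NHX9-8FA. Macrophage markers (9 genes) summed to 2810 to 3640 in Empty and 1490 to 2560 in G-NHX9, where 2 were higher and 3 lower. The mean macrophage sum was below the 3290 CPM of Empty in all 6 other groups. It was 2060 in G-NHX9, 2430 in G-NHX9-8FA, 2150 in G-NHX9-midi, 2200 in G-NHX9-21FGAA, 2760 in G-NHX9-midi-21FGAA and 2430 in G-NHX9-DDNA. Early granule markers (5 genes) summed to 126 to 583 CPM in Empty, 1050 to 1430 in G-NHX9 (4 genes higher), 693 to 2080 in G-NHX9-8FA (4), 594 to 1610 in G-NHX9-midi (3), 930 to 1080 in G-NHX9-21FGAA (5), 186 to 458 in G-NHX9-midi-21FGAA (0) and 708 to 1510 in G-NHX9-DDNA (5). The 4 T cell markers summed to at most 6.94 CPM and the 4 B cell markers to at most 1.21 CPM in any library. The part of these lineages in the Hoxb levels was not tested.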

How the data were processed

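RNA-seq of 35 libraries (7 groups of 5) gave 1 table, in which the authors deposited raw read counts per gene for 49671 genes. Per the submitters' processing notes, reads were aligned to mm10 with STAR 2.7.0d and counted with HTSeq 0.11.2, from a stranded total RNA kit. The annotation and strand setting of the counting are not given in the sources used here. Coordinates are from the mm10 annotation at hand, whose IDs matched 88.1% of rows with version and 99.3% without.

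Counts were filtered with filterByExpr (17166 genes left), scaled by TMM and fitted with edgeR 4.0.16's quasi-likelihood test (limma 3.58.1, R 4.3.3) over all 35 libraries without a block, with Benjamini-Hochberg adjustment over all tested genes and a threshold of 0.05. The steps were checked on simulated counts. SE is the log2 fold change over the root of F, and intervals of differences are 2 SE. Where a group had few reads, a pooled ratio with an exact 95% interval is given. Depth was 31559914 to 75810659 reads per library. Samples were grouped by their labels. Alternatives were other scaling (RLE or totals), 2 other filters, DESeq2 1.42.0, the 2 groups alone, a replicate block, leaving out each library and, chosen after seeing the data, 8-week libraries only. Figures were drawn with matplotlib 3.10.9.

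The members, gene lists and motifs were chosen with earlier results of these data known. All 8 members are named; of other genes, those annotated between Hoxb1 and Hoxb13, the 3 nearest on each side, the 2 most alike each member, and at most 3 per list, those most changed in G-NHX9. The values of 1 gene that this rule names are not reported here. Every same-numbered pair had a correlation of deviations over 0.1 in 5 of 14 comparisons (G-NHX9, G-NHX9-midi-21FGAA and G-NHX9-DDNA against Empty, G-NHX9-21FGAA and G-NHX9-DDNA against G-NHX9). In all 14 the mean over same-numbered pairs (0.12 to 0.38) was above that over other pairs (-0.09 to -0.03). The numbers may thus pair the libraries throughout, which the main fit without a block does not use.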

Additional observations from a re-analysis of the deposited data

Results flagged for a closer look

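In 6 of 56 combinations of a gene and a group, 1 library stood apart from the other 4 by more than Dixon's 95% criterion, which flags about 1 in 20 by chance. For Hoxb8 in G-NHX9, replicate 5 was at 6.42 CPM and the others at 2.46 to 3.19 CPM. For Hoxb9 in G-NHX9-8FA, replicate 4 was at 0.077 CPM (3 reads) and the others at 0.0183 to 0.0306 (1 read each). The other 4 were single libraries with 1 or 2 reads where the rest had 0, namely Hoxb6 in G-NHX9-midi-21FGAA (replicate 3, 0.0196 CPM), and Hoxb8 in G-NHX9-21FGAA (replicate 2, 0.0207 CPM), G-NHX9-midi-21FGAA (replicate 5, 0.0127 CPM) and G-NHX9-DDNA (replicate 1, 0.0413 CPM).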

How the results depend on the processing

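Of 65 called gene values, 12 lost the call under at least 1 alternative, and of 1104 recomputed values 1046 kept the call and its direction, 58 lost the call and 0 changed direction. With only genes of a mean of at least 1 CPM tested, which left fewer members in the test, the numbers of higher members against Empty were 2 in G-NHX9, 2 in G-NHX9-8FA, 2 in G-NHX9-midi and 0 in G-NHX9-DDNA, and of lower members 0 in G-NHX9-21FGAA and 1 in G-NHX9-DDNA; against G-NHX9 the lower members were 0 in G-NHX9-8FA, 1 in G-NHX9-midi, 2 in G-NHX9-21FGAA and 2 in G-NHX9-DDNA, and the other comparisons had 2 (G-NHX9-midi-21FGAA against G-NHX9-midi), 1 (G-NHX9-midi against G-NHX9-8FA), 2 (G-NHX9-21FGAA against G-NHX9-8FA) and 2 (G-NHX9-midi against G-NHX9-21FGAA). With no filter, 3 were higher in G-NHX9-8FA, 0 higher and 1 lower in G-NHX9-DDNA, and 1 lower in G-NHX9-midi against G-NHX9-8FA. With 8-week libraries only, 3 were higher in G-NHX9-8FA, 2 in G-NHX9-midi and 0 in G-NHX9-DDNA, where 1 was lower. With the 2 groups alone, 6 were higher in G-NHX9 (Hoxb3 to Hoxb8) in place of 8. In the same setting 2 were higher in G-NHX9-8FA, 2 in G-NHX9-midi and 0 in G-NHX9-DDNA. The lower members were then 0 in G-NHX9-21FGAA, 1 in G-NHX9-midi-21FGAA and 0 in G-NHX9-DDNA. The 4 comparisons among mutants had 2, 1, 2 and 2 called, in the order above. Hoxb2 in G-NHX9-21FGAA against G-NHX9 lost its call there (-1.47, edgeR adjusted p = 0.05). DESeq2 called 0 higher in G-NHX9-DDNA, and library totals in place of TMM gave 1 lower in G-NHX9-DDNA and 1 lower in G-NHX9-midi against G-NHX9-8FA. The cause of these shifts was not tested beyond the number of genes and samples entering each fit. Leaving out 1 library gave 3 to 5 higher in G-NHX9-8FA, 3 to 4 in G-NHX9-midi, 0 to 1 higher and 0 to 2 lower in G-NHX9-DDNA, 1 to 2 lower in G-NHX9-21FGAA and 2 to 3 in G-NHX9-midi-21FGAA, 1 to 3 lower in G-NHX9-midi against G-NHX9-8FA, 3 to 5 lower in G-NHX9-21FGAA against G-NHX9-8FA and 3 to 4 higher in G-NHX9-midi against G-NHX9-21FGAA; all counts of the other comparisons stayed at 8 in G-NHX9 against Empty, and at 5, 6, 8 and 8 against G-NHX9 and 4 in G-NHX9-midi-21FGAA against G-NHX9-midi. Adding the replicate block to the fit kept all 65 calls, with 8 higher in G-NHX9 against Empty. It added Hoxb3 in G-NHX9-8FA against G-NHX9 (6 lower in place of 5). There the correlation of same-numbered pairs was 0.18 on average and 0.03 at the lowest, beside a mean of -0.04 over other pairs. Outside G-NHX9, Hoxb5 to Hoxb9 held at most 19 reads in any library, so depth limits what could be detected there.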

Other observations

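Genes that work with or on Hox genes were counted in the same 6 comparisons with Empty. Of the TALE cofactors, the PBX, MEIS and PKNOX homeodomain partners of Hox proteins, 8 of 9 were tested, and 3 rose and 3 fell in G-NHX9 (median log2 fold change 0.09), with 3 and 2, 2 and 3, 4 and 2, 3 and 1, and 2 and 1 in G-NHX9-8FA, G-NHX9-midi, G-NHX9-21FGAA, G-NHX9-midi-21FGAA and G-NHX9-DDNA. Pbx3 stood at 6.43 CPM in Empty and 63.2 in G-NHX9 (3.30 ± 0.15, edgeR adjusted p = 2.7e-17) and at 7.32 to 10.3 in the mutants. Pbx4 rose in all 6 groups, from 1.94 ± 0.27 in G-NHX9 to 0.78 ± 0.27 in G-NHX9-midi-21FGAA.

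Of 13 genes listed as Hox activators, mainly MLL complex subunits and Cdx factors, 10 were tested and 3, 2, 4, 3, 2 and 3 rose in the 6 groups in the order above from G-NHX9, with 0 lower. Over all genes tested 16.9%, 13.4%, 20.5%, 14.7%, 9.59% and 9.85% were higher in these groups and 15.2%, 13.2%, 20%, 12.5%, 7.32% and 7.35% lower, shares against which the counts of each list here are to be read. The histone methyltransferase subunit Wdr5 rose in all 6 (0.24 to 0.40), Dpy30 in 5 (0.38 to 0.69) and Psip1, a chromatin tether of MLL, in 5 (0.55 to 0.95). Of 21 Polycomb genes, whose products hold silent Hox clusters shut, all 21 were tested and 8, 5, 9, 4, 2 and 3 rose, while 0, 1, 3, 3, 3 and 2 fell, several of these counts being near those shares. Cbx6 rose in all 6 groups, most in G-NHX9 (1.31 ± 0.16, adjusted p = 9.9e-08), Cbx2 in G-NHX9 (0.68 ± 0.20), G-NHX9-8FA (0.81 ± 0.20) and G-NHX9-midi (1.35 ± 0.20), and Pcgf6 in those 3 and in G-NHX9-21FGAA (0.32 ± 0.10).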
